A study of Homo sapiens with 14 samples.

Results

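Glutathione S-transferases were described here as 10 genes: GSTP1, GSTA4, GSTM2, GSTM3, GSTM4, GSTO1, GSTK1, MGST1, MGST2 and MGST3. They were taken by name, not by level, and matched by Ensembl ID in the deposited count tables, where they are 10 of 62757 genes. RNA was sequenced from the human ovarian cancer cell lines OVCAR3 and A2780 in 14 libraries, which form 7 groups of 2. Both lines were present as parental cells, labelled WT, and as a derivative made resistant to cisplatin, labelled DDP. The other groups were OVCAR3-DDP cells with a short hairpin RNA. Of these, sh1 and sh2 were directed against ADAR1, and shNC was read as their control. The study set out to relate ADAR1, an enzyme that edits adenosine in double-stranded RNA, to cisplatin resistance. All hairpin groups thus carry the DDP label, and none was made in parental cells or in A2780. The sources used here do not say whether a derivative is 1 clone, how long it was kept in cisplatin, or whether the 2 libraries of a group came from separate cultures. The p-values below therefore measure the spread between libraries, which may be technical.

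Glutathione S-transferases join the tripeptide glutathione to electrophiles such as drug metabolites and products of lipid peroxidation, and the conjugates are then pumped out of the cell. The soluble enzymes fall into classes named by Greek letters, of which pi, alpha, mu and omega are cytosolic and kappa lies in mitochondria and peroxisomes. Another, unrelated family, MAPEG, spans membranes and includes MGST1, MGST2 and MGST3. Glutathione can also bind platinum drugs, and GSTP1 in particular has long been studied in cisplatin resistance.

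The libraries held between 20428538 and 49115255 gene-assigned counts. Levels are given as CPM, a gene's count scaled by the gene-assigned total of its library, and differences as log2 fold change from edgeR with TMM scaling and an approximate standard error (SE). A difference was called at a Benjamini-Hochberg adjusted p below 0.05 over all genes of the fit. The targeted gene ADAR stood at 447 and 399 CPM in shNC, 289 and 254 CPM in sh1, and 116 and 114 CPM in sh2. It fell in sh1 (log2 −0.71, edgeR adjusted p = 0.00123) and in sh2 (log2 −1.99, edgeR adjusted p = 2.07e-09). The 2 libraries labelled OVCAR3-DDP stood apart from the other OVCAR3 libraries in markers of epithelial and ovarian carcinoma cells. The summed level of 11 such markers was 4400 to 4791 CPM in parental OVCAR3 and 4554 to 5833 CPM in the 6 hairpin libraries, but 539 to 575 CPM in the pair labelled OVCAR3-DDP, where CD44 was at 0 counts. In A2780 it was 198 to 306 CPM. Of 10 markers tested between the pair labelled OVCAR3-DDP and parental OVCAR3, 9 were called lower in the pair and 1 higher, against 68.5% of all genes called. The 1 higher was WT1, at 19.0 CPM in the pair and 0 in parental OVCAR3. Because these 2 libraries stood apart, they are called the pair labelled OVCAR3-DDP throughout, and what sets them apart was not tested. Leukocyte markers summed to at most 4.70 CPM and endothelial markers to at most 2.87 CPM in all 14 libraries. Fibroblast markers summed to 33.0 to 132 CPM. The hairpin libraries also differed from the rest in the share of mitochondrial messenger RNA, 0.726% to 0.947% against 2.31% to 3.51% of assigned counts.

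Stretches before the RefSeq transcript starts are shown for the 4 members the results turn on, GSTP1 for its level in every group and MGST1, GSTM3 and GSTM2 for their switches between groups. They are from RefSeq on GRCh38.p14, on the strand of the gene, 5′ to 3′, and capitals mark motif matches. RefSeq windows of 250 bases before the start were found for 9 of the 10 members, as 11 windows, since MGST1 has 3. The GSTP1 stretch at chr11:67583736-67583765 covers the bases from 76 to 47 before the start. All its 30 bases lie in an exon annotated as UTR in GENCODE 29, where the gene starts further upstream, at chr11:67583595. The MGST1 stretch at chr12:16347395-16347644 is the whole first window, which lies after the GENCODE start of the gene (chr12:16347142) and holds no annotated exon, and the GSTM3 stretch at chr1:109741039-109741288 on the minus strand is the whole of its window. The GSTM2 stretch at chr1:109667807-109668021 is the window up to the first exon that GENCODE 29 annotates.
GSTP1: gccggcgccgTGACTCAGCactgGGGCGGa
MGST1: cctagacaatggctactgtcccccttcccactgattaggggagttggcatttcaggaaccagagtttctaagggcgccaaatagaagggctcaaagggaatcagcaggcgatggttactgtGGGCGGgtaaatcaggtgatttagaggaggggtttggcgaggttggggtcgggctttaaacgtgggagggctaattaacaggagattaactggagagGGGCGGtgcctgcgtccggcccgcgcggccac
GSTM3: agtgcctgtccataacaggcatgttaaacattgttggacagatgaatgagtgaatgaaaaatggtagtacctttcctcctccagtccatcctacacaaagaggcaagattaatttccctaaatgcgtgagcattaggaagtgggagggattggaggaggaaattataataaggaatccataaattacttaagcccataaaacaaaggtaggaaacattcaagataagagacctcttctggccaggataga
GSTM2: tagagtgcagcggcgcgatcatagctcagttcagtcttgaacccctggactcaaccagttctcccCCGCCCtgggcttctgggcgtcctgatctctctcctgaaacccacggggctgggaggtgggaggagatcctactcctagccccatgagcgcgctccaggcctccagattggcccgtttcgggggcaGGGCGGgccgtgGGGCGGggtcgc

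Both strands were searched for TGACNNNGC, the core of the antioxidant response element through which NRF2 acts, and for the AP-1 site TGACTCA. The other motifs searched were the GC box, spelled GGGCGG, and the classical promoter element known as the TATA box, spelled TATAAA. The TGACNNNGC core stood in the windows of GSTP1, GSTA4 and GSTO1, 3 of 9 members, against 11.03% of 27305 windows of the same length. In GSTP1 the match, TGACTCAGC at 66 bases before the start, overlaps a TGACTCA, which is found in 4.16% of windows. A GC box stood in 7 of 9 members against 42.3% of windows. GSTM3 was without a match to any of the 4 motifs and had 1 CG dinucleotide in its window, where 6.39% of windows have fewer. GSTP1 had 28, and 84.5% of windows have fewer. A match is a run of letters and was not tested as a binding site.

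GSTP1, the only pi-class enzyme in human cells, had the highest level per length in all 7 groups. On CPM per kilobase of the principal transcript it stood at 503 ± 67.5 (SD, n = 2) in parental OVCAR3 and 434 ± 9.27 in parental A2780. Its share of the summed level of the 10 genes ran from 56.04% in parental A2780 to 66.9% in parental OVCAR3. The sum itself was 752 ± 75.2 in parental OVCAR3, 824 ± 28.0 in the pair labelled OVCAR3-DDP, 775 ± 15.5 in parental A2780 and 929 ± 121 in A2780-DDP. It was 611 ± 34.9 in shNC, 567 ± 8.08 in sh1 and 622 ± 3.57 in sh2. GSTO1, the omega-class enzyme that reduces thiol adducts and arsenic compounds, stood 2nd or 3rd in every group. The lowest rank fell to MGST1 in parental OVCAR3 and the hairpin groups, to GSTM4 in the pair labelled OVCAR3-DDP and to GSTM3 in both A2780 groups. MGST3 stood between rank 2 and rank 5. With the length of all annotated exons in place of the principal transcript GSTP1 stayed first and GSTO1 came 2nd in all 7 groups, while MGST3 moved to ranks 4 to 8, from 2 to 6 in parental OVCAR3. In the pair labelled OVCAR3-DDP GSTK1 went from rank 2 to rank 3, and in parental OVCAR3 GSTM3 went from rank 6 to rank 3.

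**Figure D1:**
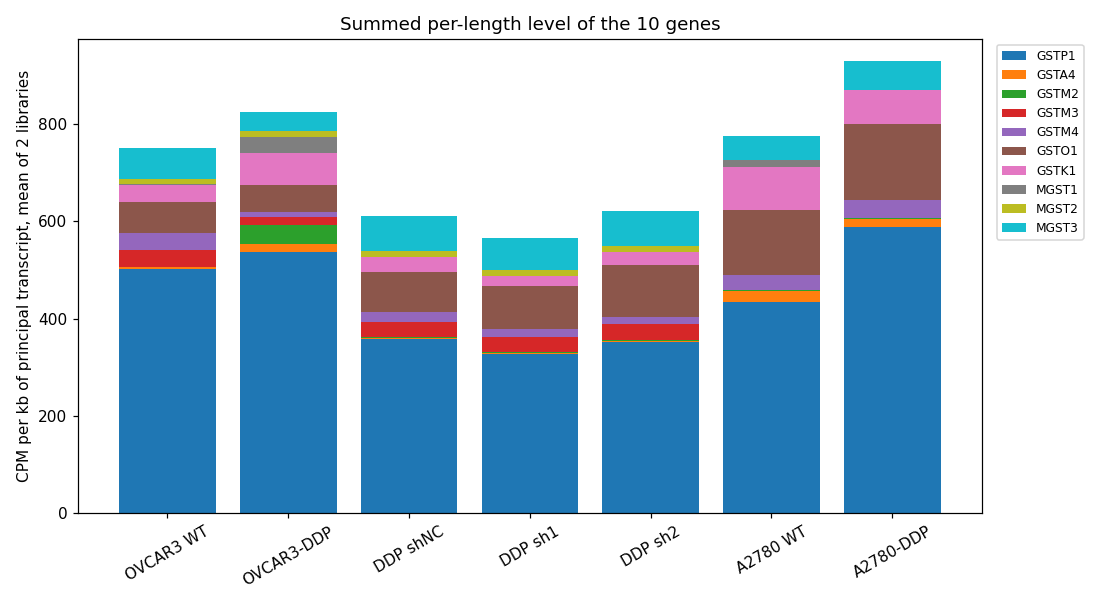
Stacked bars give the mean of 2 libraries in CPM per kilobase of principal transcript for each of the 10 genes in the 7 groups. GSTP1 makes up 56.04% to 66.9% of each bar. GSTO1 runs from 6.73% in the pair labelled OVCAR3-DDP to 17.4% in parental A2780. GSTK1 runs from 3.76% in sh1 to 11.4% in parental A2780, and MGST3 from 4.72% in the pair labelled OVCAR3-DDP to 11.8% in shNC. GSTM2 and MGST1 reach 4.84% and 3.84% in the pair labelled OVCAR3-DDP, and GSTM3 is missing from the A2780 bars.

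The OVCAR3 comparison asks which members differ between resistant and parental cells. In it, 8 of 10 members were called, 4 higher and 4 lower in the pair labelled OVCAR3-DDP, against 68.5% of all genes tested (33.4% higher and 35.2% lower), so the share of members lies near the background. MGST1, GSTM2, GSTA4 and GSTK1 were higher, GSTM4, GSTM3, MGST3 and GSTO1 lower, and GSTP1 and MGST2 were not called. In A2780, 9 members could be tested and 5 were called, 1 higher and 4 lower in A2780-DDP, against 35.3% of genes (18.0% higher and 17.3% lower). GSTP1 was higher there, and MGST1, MGST2, GSTA4 and GSTK1 were lower. That count rests on single libraries. It was 1 without parental A2780 replicate 1, 3 without parental A2780 replicate 2 and 2 without A2780-DDP replicate 1. Without A2780-DDP replicate 2 it was 6, and the balance turned to 4 higher (GSTP1, GSTM4, GSTO1 and MGST3) and 2 lower (MGST1 and MGST2). The median absolute log2 difference of the members was 1.10 in OVCAR3 and 0.35 in A2780, beside 0.95 and 0.43 over all genes tested. The difference between the lines, tested as an interaction, was called for 9 of 9 members, against 53.8% of genes (26.9% positive and 26.9% negative).

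**Figure D2:**
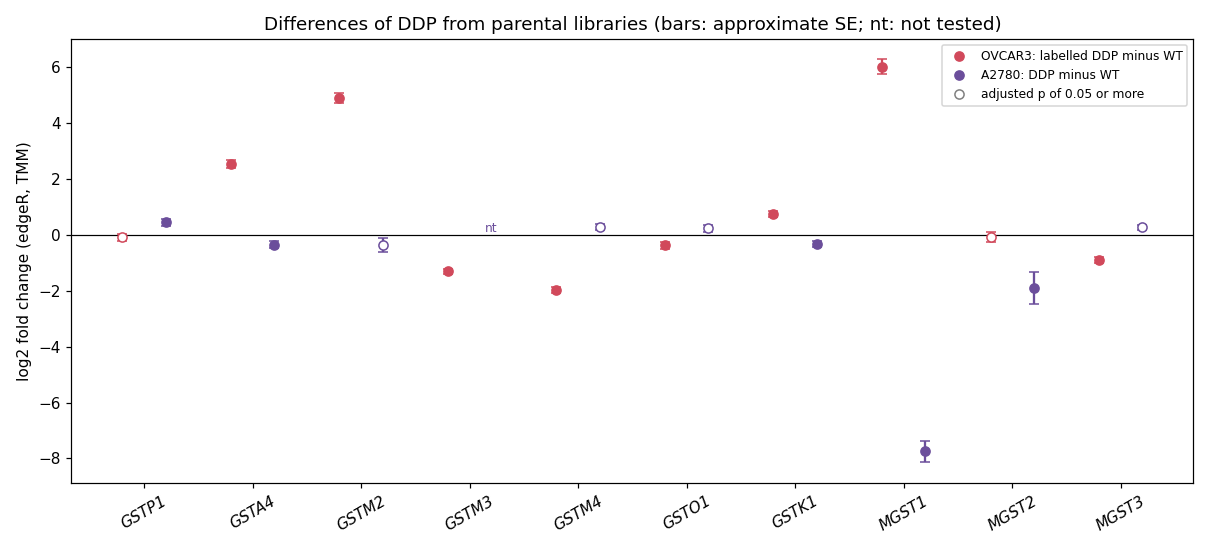
Points give the log2 fold change of DDP over parental libraries with its approximate SE, in red for OVCAR3 and in purple for A2780. Open points have an adjusted p of 0.05 or more, and GSTM3 was not tested in A2780, where it had 0 counts. MGST1 lies at 6.02 in OVCAR3 and −7.75 in A2780.

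GSTP1 conjugates a broad range of small electrophiles and is the member most often named in work on platinum drugs. Parental OVCAR3 had 529 and 437 CPM and the pair labelled OVCAR3-DDP 496 and 534 CPM, so these groups overlapped. Parental A2780 had 411 and 424 CPM and A2780-DDP 623 and 507 CPM, which did not overlap. In OVCAR3 the log2 fold change was −0.09 (SE 0.12, edgeR adjusted p = 0.54), and its sign turned with upper-quartile or total-count scaling. In A2780, GSTP1 rose by 0.45 on the log2 scale (SE 0.12, edgeR adjusted p = 0.0106), in 2 of 2 libraries. That call was lost without parental A2780 replicate 1 (adjusted p = 0.0709) or A2780-DDP replicate 1 (adjusted p = 0.0878). The GSTP1 difference between the lines was −0.53 (SE 0.17, edgeR adjusted p = 0.0171). It was lost with total-count scaling (adjusted p = 0.0882) and when any of 5 libraries was left out in turn, with adjusted p from 0.051 to 0.118. The 6 hairpin libraries held 308 to 358 CPM, all below the 8 libraries without a hairpin. CPM are not TMM-scaled, and total-count scaling moved the median log2 of all genes by −0.19 in shNC against parental OVCAR3. With TMM the GSTP1 value in that comparison was −0.30 (edgeR adjusted p = 0.0317), a call lost in some alternative analyses.

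GSTA4, an alpha-class enzyme with high activity towards 4-hydroxynonenal, a product of lipid peroxidation, fell into a low and a high set of groups. It stood at 3.09 and 3.79 CPM in parental OVCAR3 and at 24.1 and 21.1 CPM in the pair labelled OVCAR3-DDP. In bulk RNA, fewer cells with a transcript and less of it per cell cannot be told apart. Parental A2780 held 29.9 and 31.4 CPM and A2780-DDP 24.9 and 22.7 CPM. The hairpin libraries had 1.94 to 3.64 CPM, which overlaps parental OVCAR3 and not the pair labelled OVCAR3-DDP. GSTA4 rose by 2.53 in OVCAR3 (SE 0.14, edgeR adjusted p = 3.55e-09) and fell by 0.35 in A2780 (SE 0.12, edgeR adjusted p = 0.0416). The second call was lost in 13 of 20 alternative analyses, among them the DESeq2 Wald test (adjusted p = 0.10) and the removal of any A2780 library (adjusted p 0.0723 to 0.323). The GSTA4 difference between lines was 2.88 (SE 0.19, edgeR adjusted p = 3.49e-08).

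The mu-class genes GSTM4, GSTM2 and GSTM3 lie in one cluster on chromosome 1 (GRCh38), at chr1:109656081-109674836, chr1:109668022-109709551 and chr1:109733932-109741038 in that order, with GSTM3 on the minus strand. GSTM2 overlaps GSTM4 and GSTM1 on the same strand, and shares 375 exonic bases with GSTM4 and 559 with GSTM1. Of the stretches of 50 bases in the principal GSTM2 transcript, 74.6% also occur in another gene, with 46.2% in GSTM1 and 40.2% in GSTM4. For GSTM4 the share was 18.6%, and for GSTM3 1.45%. Counts of GSTM2 and GSTM4 are therefore uncertain, since reads in shared stretches could be dropped or assigned to the neighbour.

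GSTM2, a mu-class enzyme of muscle and brain among other tissues, was high in 1 group alone. It stood at 47.7 and 44.5 CPM in the pair labelled OVCAR3-DDP. Parental OVCAR3 had 1.48 and 1.28 CPM, shNC 2.45 and 2.26 CPM, and the 4 A2780 libraries 1.04 to 1.67 CPM. GSTM2 rose by 4.89 in OVCAR3 (SE 0.18, edgeR adjusted p = 6.03e-11) and was not called in A2780 (log2 −0.37, SE 0.24, edgeR adjusted p = 0.26). The difference between the lines was 5.26 (SE 0.30, edgeR adjusted p = 9.76e-09). Its neighbour GSTM1, which shares those stretches, ran the other way: 67.5 and 64.0 CPM in parental OVCAR3 against 0.434 and 0.348 CPM in the pair labelled OVCAR3-DDP (log2 −7.56, edgeR adjusted p = 8.68e-11). In shNC, GSTM1 stood at 34.9 and 35.6 CPM, and in A2780 at 0.261 CPM or less.

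GSTM3, a mu-class enzyme found in testis and brain, was counted in the OVCAR3 libraries and not in A2780. It stood at 140.0 and 133 CPM in parental OVCAR3, 61.1 and 63.6 CPM in the pair labelled OVCAR3-DDP, and 122 to 139 CPM in the 6 hairpin libraries. All 4 A2780 libraries had 0 counts, which allows up to 0.0469 CPM in parental A2780 and 0.0446 CPM in A2780-DDP, counting error only. GSTM3 fell by 1.31 in OVCAR3 (SE 0.10, edgeR adjusted p = 3.55e-07). Parental A2780 was at least 2894-fold lower than parental OVCAR3, with 0 counts set to a floor of 3 over the group. No fold change can be given within A2780, nor a difference between the lines.

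GSTM4 stood at 51.9 and 50.4 CPM in parental OVCAR3 and at 14.7 and 15.1 CPM in the pair labelled OVCAR3-DDP, with no overlap. Parental A2780 had 42.4 and 45 CPM and A2780-DDP 55.6 and 49.4 CPM. It fell by 1.96 in OVCAR3 (SE 0.11, edgeR adjusted p = 2.72e-09). In A2780 the value was 0.27 (SE 0.10, edgeR adjusted p = 0.052), just outside the threshold, and it was called in 7 of 20 alternative analyses. The hairpin libraries, at 21.4 to 28.7 CPM, lay between parental OVCAR3 and the pair labelled OVCAR3-DDP. The GSTM4 difference between the lines was −2.23 (SE 0.15, edgeR adjusted p = 3.69e-08).

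GSTO1 stood higher in A2780 than in OVCAR3. Parental A2780 had 129.6 and 132 CPM and A2780-DDP 167 and 138 CPM, while parental OVCAR3 had 68.0 and 55.3 CPM and the pair labelled OVCAR3-DDP 53.9 and 54.0 CPM. Every A2780 library was above every OVCAR3 library. GSTO1 fell by 0.37 in OVCAR3 (SE 0.12, edgeR adjusted p = 0.0158). This was the least stable of the 8 OVCAR3 calls: it was lost in 10 of 19 alternative analyses, with total-count scaling (log2 −0.19, adjusted p = 0.164) and without parental replicate 1 (log2 −0.20, adjusted p = 0.158) among them. Leaving out either library labelled OVCAR3-DDP, or either parental A2780 library, also lost it, with adjusted p from 0.0694 to 0.0834. In A2780 the value was 0.23 (SE 0.12, edgeR adjusted p = 0.15), and without A2780-DDP replicate 2 it was 0.43 (adjusted p = 0.0217). The GSTO1 difference between the lines was −0.61 (SE 0.17, edgeR adjusted p = 0.00898), lost without parental A2780 replicate 1 (adjusted p = 0.0552) or A2780-DDP replicate 1 (adjusted p = 0.0652).

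GSTK1, the kappa-class enzyme of mitochondria and peroxisomes, was higher in the pair labelled OVCAR3-DDP and lower in A2780-DDP than in the parental cells. It stood at 38.5 and 35.6 CPM in parental OVCAR3 and at 67.5 and 71.8 CPM in the pair labelled OVCAR3-DDP. Parental A2780 had 88.4 and 96.1 CPM and A2780-DDP 75.9 and 69.8 CPM, and neither pair of groups overlapped. GSTK1 rose by 0.73 in OVCAR3 (SE 0.10, edgeR adjusted p = 2.56e-05) and fell by 0.33 in A2780 (SE 0.10, edgeR adjusted p = 0.0206). The A2780 call was lost without parental A2780 replicate 1 (adjusted p = 0.0758), parental A2780 replicate 2 (adjusted p = 0.32) or A2780-DDP replicate 2 (adjusted p = 0.23). The GSTK1 difference between the lines was 1.06 (SE 0.14, edgeR adjusted p = 3.11e-05).

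MGST1, a microsomal and outer mitochondrial membrane enzyme that acts as both transferase and peroxidase, had the widest span of group means among the 9 members with counts in every group. It stood at 0.307 and 0.509 CPM in parental OVCAR3, from 11 and 25 counts, and at 31.5 and 30.6 CPM in the pair labelled OVCAR3-DDP. Parental A2780 had 14.9 and 12.4 CPM and A2780-DDP 0.116 and 0 CPM, from 4 and 0 counts. MGST1 was thus present in the pair labelled OVCAR3-DDP and in parental A2780, and near 0 in the other groups. The log2 fold change was 6.02 in OVCAR3 (SE 0.27, edgeR adjusted p = 4.19e-10). The ratio of pooled counts over assigned totals, without TMM, was 73.2 with a 95% counting interval of 52.7 to 105. In A2780 MGST1 fell by 7.75 (SE 0.39, edgeR adjusted p = 7.14e-09), and the count ratio was 229 with an interval of 89.2 to 843. Both calls held in all alternative analyses run, 19 in OVCAR3 and 20 in A2780. The hairpin libraries, which also carry the OVCAR3-DDP label, held 0 to 12 counts of MGST1 each, or at most 0.565 CPM.

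MGST2, a membrane enzyme that can also make leukotriene C4, separated the cell lines. All 10 OVCAR3 libraries lay between 12.9 and 18.0 CPM, and the groups overlapped. The 4 A2780 libraries had 0.0290 to 0.385 CPM, from 1 to 12 counts. In OVCAR3 the log2 fold change was −0.09 (SE 0.18, edgeR adjusted p = 0.66), and its sign turned with upper-quartile or total-count scaling. The A2780 call of MGST2 (log2 −1.90, SE 0.58, edgeR adjusted p = 0.0204) rests on 22 counts in parental cells and 6 in A2780-DDP, a ratio of 3.86 with a counting interval of 1.52 to 11.6. It was lost when parental A2780 replicate 1 (adjusted p = 0.105) or A2780-DDP replicate 1 (adjusted p = 0.197) was left out. The MGST2 difference between lines was 1.81 (SE 0.60, edgeR adjusted p = 0.0224), lost without the same libraries (adjusted p = 0.077 and 0.163).

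MGST3, a membrane enzyme with peroxidase activity towards lipid hydroperoxides, stood at 61.8 and 67.6 CPM in parental OVCAR3 and at 38.7 and 40.3 CPM in the pair labelled OVCAR3-DDP. Parental A2780 had 49.4 and 48.8 CPM and A2780-DDP 62.7 and 54.5 CPM. The pair labelled OVCAR3-DDP was the lowest of all 14. MGST3 fell by 0.89 in OVCAR3 (SE 0.10, edgeR adjusted p = 3.84e-06). In A2780 the value was 0.27 (SE 0.10, edgeR adjusted p = 0.057), and it was called in 6 of 20 alternative analyses. The difference between lines for MGST3 was −1.16 (SE 0.14, edgeR adjusted p = 1.45e-05).

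**Figure D3:**
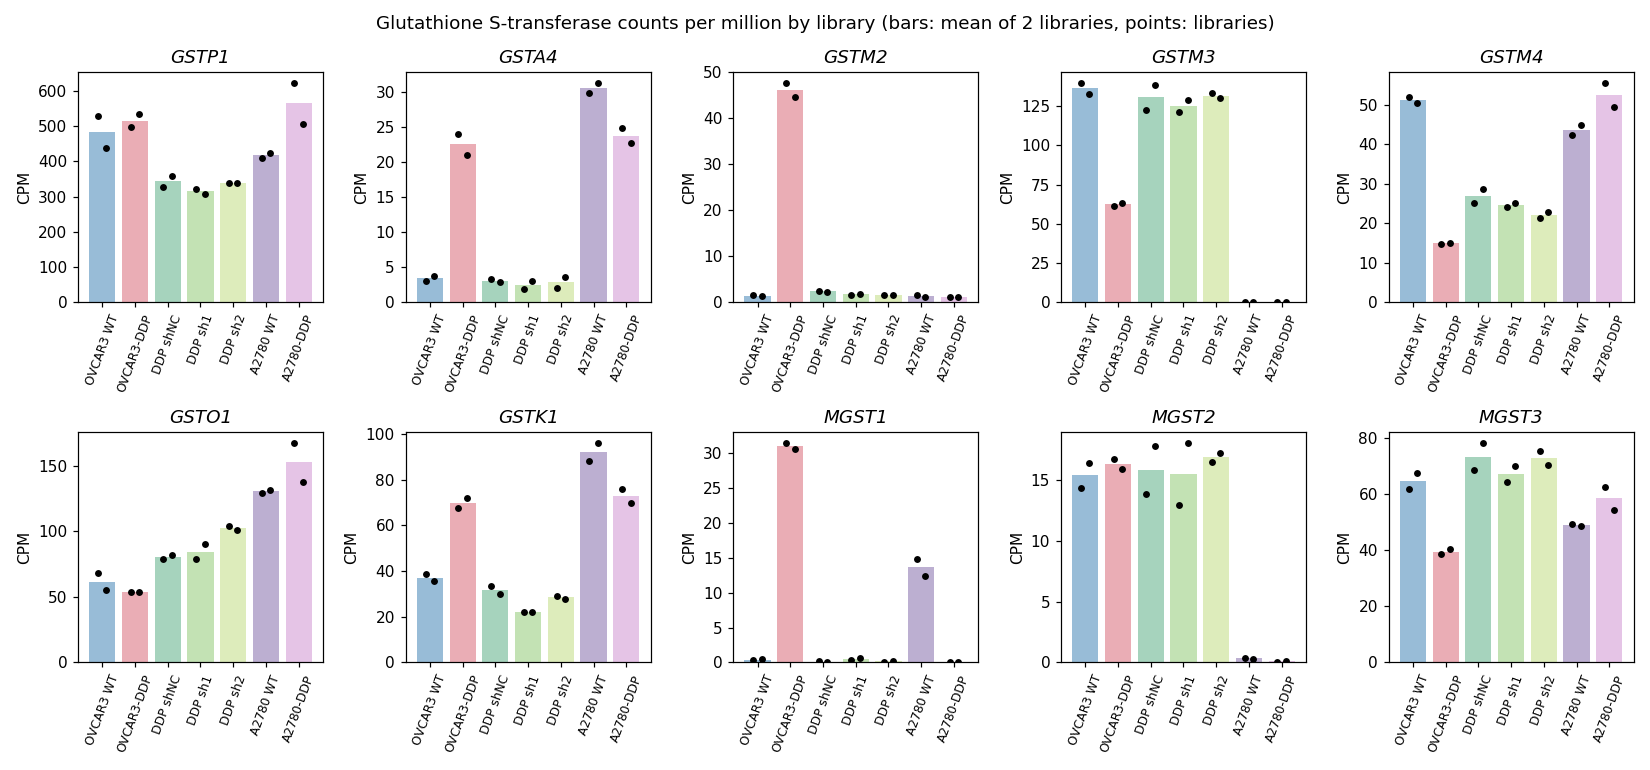
Bars give the mean CPM of 2 libraries and points the libraries, for each member in the 7 groups, with a scale of its own and starting at 0. GSTM2 and MGST1 are high in the pair labelled OVCAR3-DDP and low in the hairpin groups, while GSTM3 and MGST2 are near 0 in A2780.

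The parental lines were compared to ask what the members' levels were without resistance. Between parental A2780 and parental OVCAR3, 8 of 10 members were called, 4 each way, against 66.0% of genes (33.7% higher and 32.3% lower in A2780). GSTA4 (log2 3.10), MGST1 (log2 4.96), GSTK1 (log2 1.27) and GSTO1 (log2 1.03) were higher in A2780, with edgeR adjusted p from 4.82e-10 to 5.97e-06. MGST2 (log2 −5.52), MGST3 (log2 −0.45) and GSTM4 (log2 −0.27) were lower, with edgeR adjusted p of 8.72e-10, 0.00148 and 0.0284, beside GSTM3 at its bound. The ratio of MGST2 was 45.2, with a counting interval of 29.7 to 72.3. The GSTM4 call was lost in 7 of 20 alternative analyses, and without parental A2780 replicate 1 its value was −0.20 (adjusted p = 0.254). GSTP1 (log2 −0.26, edgeR adjusted p = 0.07) and GSTM2 (log2 −0.01, edgeR adjusted p = 0.99) were not called. GSTP1 was called in 9 of 20 alternative analyses, with all 14 libraries in the fit among them (adjusted p = 0.0328).

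The hairpin comparisons ask what follows a fall of ADAR within the cells labelled OVCAR3-DDP, and both share the shNC libraries. In sh1, 1 of 9 members tested was called, GSTK1, which was lower, against 3.81% of genes (1.96% higher and 1.85% lower). In sh2, 0 of 9 were called by edgeR, against 14.3% of genes (7.23% higher and 7.04% lower), with 2 at an unadjusted p below 0.05 (GSTM2 and GSTM4), 0 called by DESeq2 and 0 by limma-voom. MGST1 did not pass the filter on low counts. GSTK1 stood at 33.6 and 30.02 CPM in shNC, 22.3 and 22.2 CPM in sh1 and 29.1 and 27.9 CPM in sh2, so each hairpin group lay below the control. It fell by 0.59 in sh1 (SE 0.14, edgeR adjusted p = 0.0186), while the sh2 value was −0.27 (SE 0.14, edgeR adjusted p = 0.20). The sh1 call of GSTK1 was lost without shNC replicate 1 (adjusted p = 0.262) or shNC replicate 2 (adjusted p = 0.137). For the mean of both hairpins, 1 of 9 members was called, against 11.9% of genes (5.94% higher and 5.98% lower), and it was GSTK1 again (log2 −0.43, SE 0.12, edgeR adjusted p = 0.0224). That call was lost with total-count scaling (adjusted p = 0.0613) and when either shNC library (adjusted p = 0.331 and 0.171) or either sh2 library (adjusted p = 0.0869 and 0.0812) was left out.

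No other member passed the threshold with the hairpins. GSTM2, at 2.45 and 2.26 CPM in shNC, had 1.60 and 1.74 CPM in sh1 and 1.57 CPM in both sh2 libraries, from 32 to 58 counts a library. Its groups did not overlap, and its values were further from 0 than those of GSTK1 in sh2 and in the mean of the hairpins (sh1 log2 −0.57, sh2 log2 −0.69, mean log2 −0.63, edgeR adjusted p = 0.34, 0.16 and 0.14). GSTO1 stood at 78.7 and 81.7 CPM in shNC, 78.7 and 90.4 CPM in sh1 and 104 and 101 CPM in sh2, where both libraries lay above the control (log2 0.25, SE 0.12, edgeR adjusted p = 0.17). GSTM4 was at 25.2 and 28.7 CPM in shNC and 21.4 and 22.7 CPM in sh2 (log2 −0.39, SE 0.14, edgeR adjusted p = 0.069). In a fit of shNC and sh2 alone, GSTM4 (adjusted p = 0.0073), GSTO1 (adjusted p = 0.0124) and GSTK1 (adjusted p = 0.0449) were called. When sh1 replicate 1 was left out, the same 3 were called in sh2, with adjusted p of 0.00605, 0.0167 and 0.0436, and without sh1 replicate 2 GSTM4 (adjusted p = 0.00749) and GSTO1 (adjusted p = 0.0148) were. GSTP1 stood at 328 and 358 CPM in shNC, 322 and 308 CPM in sh1 and 337 and 340.0 CPM in sh2, within narrow bounds. Its sh1 value was −0.20 (SE 0.11, edgeR adjusted p = 0.30), and it was called without sh1 replicate 1 (adjusted p = 0.0254). Between sh2 and sh1, 0 of 9 members were called by edgeR, against 1.92% of genes (0.667% higher and 1.25% lower in sh2), with 2 at an unadjusted p below 0.05 (GSTO1 and GSTK1), 0 called by DESeq2 and 0 by limma-voom. GSTO1 was called there without sh1 replicate 2 (log2 0.35, adjusted p = 0.0087). MGST1 counts were 5 and 0 in shNC, 7 and 12 in sh1 and 2 and 4 in sh2.

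**Figure D4:**
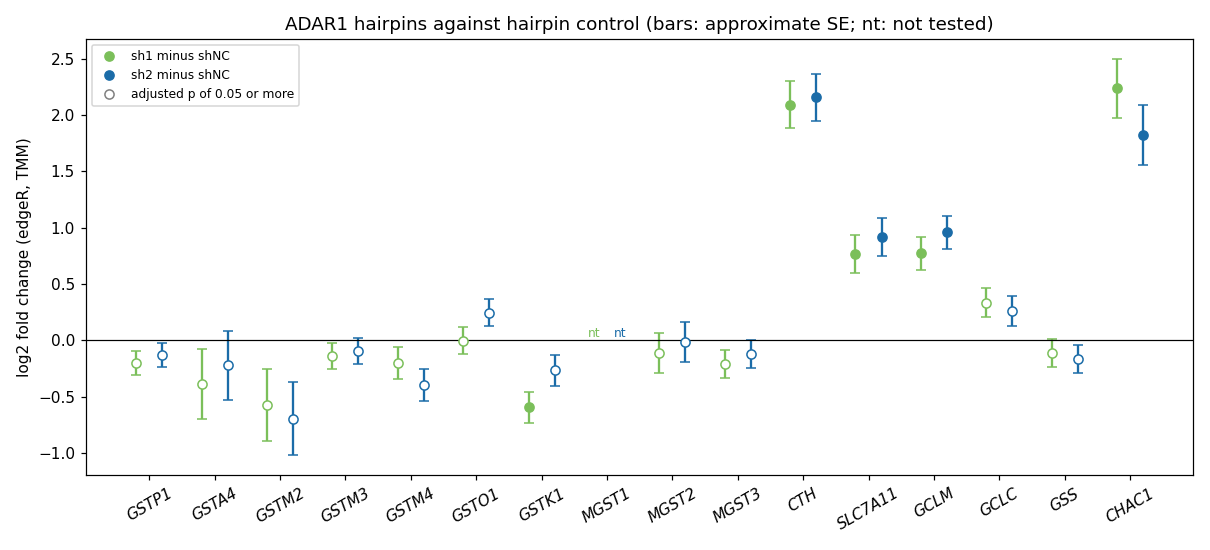
Points give the log2 fold change of sh1, in green, and sh2, in blue, over shNC with the approximate SE, for the 10 members and 6 genes that supply, make or break down glutathione. Open points have an adjusted p of 0.05 or more, and MGST1 was not tested. All members tested lie between −0.69 and 0.25, while CTH and CHAC1 lie between 1.82 and 2.24.

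The hairpin control gives another view of resistant against parental OVCAR3, with hairpin, handling and resistance joined in the same contrast, where they cannot be told apart. Between shNC and parental OVCAR3, 6 of 10 members were called, 3 each way, against 51.5% of genes (25.1% higher and 26.5% lower). GSTM2 (log2 0.97), GSTO1 (log2 0.57) and MGST3 (log2 0.37) were higher in shNC, with edgeR adjusted p of 0.00139, 0.000389 and 0.00877. GSTM4 (log2 −0.73), GSTP1 (log2 −0.30) and MGST1 (log2 −1.75) were lower, with edgeR adjusted p of 2.13e-05, 0.0317 and 0.0478. The MGST1 ratio was 3.96 with a counting interval of 1.55 to 12.9, from 5 against 36 counts. The MGST1 call was lost in 9 of 24 alternative analyses, with the pair labelled OVCAR3-DDP left out of the fit (adjusted p = 0.0668), without shNC replicate 2 (log2 −0.81, adjusted p = 0.404) and without parental replicate 2 (log2 −1.32, adjusted p = 0.23) among them. GSTP1 was lost in 8 of 25, with a value of −0.14 without parental replicate 1 (adjusted p = 0.378) and of −0.24 without shNC replicate 1 (adjusted p = 0.22). MGST3 was lost with total-count scaling (adjusted p = 0.184), without parental replicate 1 (adjusted p = 0.0614) and without shNC replicate 2 (adjusted p = 0.179). GSTA4, GSTM3, GSTK1 and MGST2 were not called.

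Between shNC and the pair labelled OVCAR3-DDP, 9 of 10 members were called, 4 higher and 5 lower in shNC, against 69.7% of genes (32.9% higher and 36.8% lower). These groups bear the same label but for the hairpin. MGST1 was lower in shNC (log2 −7.84), and its count ratio, without TMM, was 290 with an interval of 124 to 893. GSTM2 had a log2 fold change of −4.00 and GSTA4 one of −2.58. GSTK1 was lower by less (log2 −0.84, edgeR adjusted p = 7.23e-07). GSTM3 (log2 1.36), MGST3 (log2 1.19), GSTM4 (log2 1.15) and GSTO1 (log2 0.86) were higher in shNC. GSTP1 was the least stable of the 9, at −0.29 (SE 0.12, edgeR adjusted p = 0.0282), and its call was lost in 7 of 24 alternative analyses, with values of −0.24 without OVCAR3-DDP replicate 2 (adjusted p = 0.172) and −0.22 without shNC replicate 1 (adjusted p = 0.199). MGST2 was not called (log2 0.25, edgeR adjusted p = 0.23). Of the 10 epithelial and ovarian markers tested in this contrast, 9 were higher in shNC and 1, WT1, was lower. Their part in the members' differences was not tested.

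The enzymes that supply the members' substrate were read from a list of 7 genes for cystine uptake, cysteine and glutathione synthesis. In OVCAR3, 1 was higher and 4 lower in the pair labelled OVCAR3-DDP (list median log2 −0.63), and in A2780 2 were higher and 3 lower in A2780-DDP (list median −0.32). Over all genes tested, 68.5% were called in OVCAR3 (33.4% higher and 35.2% lower) and 35.3% in A2780 (18.0% higher and 17.3% lower). GCLM, the modifier subunit of the enzyme that limits glutathione synthesis, stood at 62.0 and 58.0 CPM in parental OVCAR3 and at 26.6 and 27.3 CPM in the pair labelled OVCAR3-DDP. In A2780 it went from 53.5 and 52.6 CPM to 149 and 136 CPM. Its log2 fold change was −1.33 in OVCAR3 and 1.43 in A2780 (SE 0.10 for each), with edgeR adjusted p of 4.63e-08 and 9.80e-08. GCLC, the catalytic subunit of the same enzyme, was not called in either line (log2 −0.11 and 0.19). With the mean of the hairpins 4 of these 7 genes were higher than in shNC and 0 lower (list median 0.47). Of the 9 members tested there 0 were higher and 1 lower, a share near the 11.9% of all genes called. GCLM stood at 26.9 and 23.3 CPM in shNC, 41.1 and 49.3 CPM in sh1 and 57.5 and 47.5 CPM in sh2 (sh1 log2 0.77, sh2 log2 0.96, edgeR adjusted p = 0.00546 and 0.000423).

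A list of 16 other glutathione S-transferase and MAPEG genes held 9 that passed the filter in OVCAR3. In the pair labelled OVCAR3-DDP 1 was higher and 5 lower (list median log2 −2.42), against 68.5% of all genes called. The omega-class gene GSTO2 was the one higher (log2 4.79), at 6.86 and 5.83 CPM against 0.195 and 0.204 CPM, while its neighbour in class GSTO1 was lower. PTGES, the MAPEG enzyme that makes prostaglandin E2, was lower than in parental cells in the pair labelled OVCAR3-DDP (log2 −2.42) and in A2780-DDP (log2 −2.53). GSTT2B, of the theta class, was also lower in both of these groups. It fell by 4.19 in A2780, from 8.11 and 9.51 CPM to 0.348 and 0.610 CPM. In OVCAR3 it went from 4.35 and 5.21 CPM to 0.0579 and 0 CPM, from 2 and 0 counts (edgeR adjusted p = 4.13e-08). The shNC libraries, which also carry the DDP label, lay nearer to parental OVCAR3. Their means were 0.834 CPM for GSTO2, 93.4 CPM for PTGES and 4.25 CPM for GSTT2B. Those of parental OVCAR3 were 0.199, 119 and 4.78 CPM. With the mean of the hairpins 0 of 9 of these genes were higher and 1 was lower, GSTM1 (log2 −0.38, edgeR adjusted p = 0.0481). Over all genes, 11.9% were called there.

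Genes that reduce oxidised glutathione or use it to reduce peroxides and disulfides numbered 11, with 9 tested. In OVCAR3 3 were higher and 5 lower (list median log2 −0.83), against 68.5% of all genes called. The lipid peroxidase GPX4 had the largest difference among those of at least 5 CPM (log2 2.34). It stood at 172 and 126 CPM in parental cells and at 832 and 880.2 CPM in the pair labelled OVCAR3-DDP. In shNC the GPX4 mean was 179 CPM. In A2780 2 of the 9 were higher and 2 lower, against 35.3% of all genes called, with the glutaredoxin GLRX at log2 −4.68. With the mean of the hairpins 0 of the 9 were called, against 11.9% of all genes. Among 9 genes that export or process glutathione conjugates, 7 were tested, and 3 were higher and 3 lower in OVCAR3 against 2 and 3 in A2780. The shares over all genes were again 68.5% in OVCAR3 and 35.3% in A2780. The export pumps ABCC3 in OVCAR3 (log2 −10.01, at 0.0726 against 69.4 CPM) and ABCC2 in A2780 (log2 −8.18, at 0.194 against 57.5 CPM) had the largest differences of that list. ABCC3 had a mean of 116 CPM in shNC.

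For NRF2, the factor that binds antioxidant response elements, 19 pathway genes were listed and tested. In OVCAR3 3 were higher and 12 lower, and in A2780 6 were higher and 8 lower. Over all genes tested, 68.5% were called in OVCAR3 and 35.3% in A2780. NQO1, a quinone reductase often read as a measure of NRF2 activity, stood at 125 and 105 CPM in parental OVCAR3. It stood at 6.37 and 6.88 CPM in the pair labelled OVCAR3-DDP (log2 −4.30) and at a mean of 49.9 CPM in shNC. In A2780-DDP NQO1 was higher than in parental A2780 (log2 0.39, edgeR adjusted p = 0.0114). HMOX1, which breaks down heme, was higher than in parental cells in the pair labelled OVCAR3-DDP and in A2780-DDP. It went from 11.4 and 11.5 CPM to 37.8 and 34.2 CPM in OVCAR3 (log2 1.47) and from 70.4 and 71.8 CPM to 959 and 902 CPM in A2780 (log2 3.72). With the mean of the hairpins 0 of 17 tested were higher and 2 lower, against 11.9% of all genes called. In the same contrasts the median log2 difference of this list was −0.53, −0.09 and 0.07, beside −0.09, −0.33 and −0.16 for the members and −0.03, 0 and 0.0043 for all genes tested. Gene lists were counted and not tested as sets.

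Genes most like 2 members in pattern were sought among 10258 protein-coding genes by Pearson's r of log2(CPM + 1) over the 14 libraries, which share cell lines and groups and so give no p. For GSTP1 they were UBL7 (r = 0.978), C14orf119 (r = 0.973) and CLP1 (r = 0.958). UBL7 ran from 37.5 CPM in sh1 to 80.6 CPM in A2780-DDP, the groups in which GSTP1 was lowest and highest. For MGST1 they were AGPAT4 (r = 0.974), ZNF75D (r = 0.969) and ZNF76 (r = 0.966). AGPAT4, an acyltransferase of phospholipid synthesis, stood at 67.8 CPM in the pair labelled OVCAR3-DDP and 32.5 CPM in parental A2780, and at 5.77 to 11.5 CPM in the other 5 groups.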

How the data were processed

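The authors deposited 1 table of raw gene counts per library, made with STAR 2.7.8a, SAMtools and HTSeq 2.0.3 on GRCh38.p13 after FastQC 0.11.9, per the submitters' processing notes. Per the labels, total RNA was extracted with Trizol. Not given in the sources used here are the strand setting, the annotation release and whether reads were paired. Reads of a member and an opposite-strand neighbour (GSTM3 with AL158847.1, MGST2 with MAML3) thus cannot be told apart. Reads on no gene, 48.7% to 50.0% of each library, stayed out of library sizes. Symbols were found for 62639 genes, and GENCODE 29 gave coordinates and lengths.

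Counts were tested with edgeR 4.0.16 (quasi-likelihood F-test, TMM, filterByExpr at a minimum count of 10, Benjamini-Hochberg over all genes) with 1 mean per group. The 8 libraries without a hairpin formed 1 fit (23031 genes), the 6 with one another (19044 genes), and all 14 served the comparisons of shNC with OVCAR3-WT and OVCAR3-DDP (24193 genes). The biological coefficient of variation was 0.104, 0.106 and 0.106. CPM use the total assigned counts, not TMM. So do the ratios given with a counting interval or a floor, which therefore differ from the edgeR log2 values. Replicates differed by a chi-square per gene of 3.88 to 31.5, so none duplicated another. The procedure was tested on simulated data. Alternatives were DESeq2 1.42.0 (size factors, Wald test), limma-voom (limma 3.58.1), upper-quartile and total-count scaling, other low-count filters, other sets of libraries in the fit, an adjusted p below 0.01, a block on replicate number and the removal of each library. Total-count scaling and leaving out the group labelled OVCAR3-DDP were added after seeing the data. The members, the lists of genes and the naming rule (up to 4 called genes of at least 5 CPM per list, the 3 most alike for GSTP1 and MGST1) were chosen with earlier results of these data known, and the text prints a part of the list genes so named. GCLC and, in a plot, GSS fall outside that rule and were chosen after their values were seen. Outside it also lie the NQO1 value in A2780, the GSTT2B value in OVCAR3 and some levels of list genes in shNC. Other software was R 4.3.3 and Python 3.11.15 with pandas 2.3.3 and matplotlib 3.10.9.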

Additional observations from a re-analysis of the deposited data

Results flagged for a closer look

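For 9 of 9 members tested the DDP minus parental difference was called as unlike in OVCAR3 and A2780, by edgeR's interaction test. The share over all genes was 53.8% (26.9% positive and 26.9% negative). The calls of GSTP1, GSTO1 and MGST2 were lost in some alternative analyses. The OVCAR3 difference minus the A2780 difference, on the log2 scale, was positive for MGST1 (13.77), GSTM2 (5.26), GSTA4 (2.88), MGST2 (1.81) and GSTK1 (1.06). It was negative for GSTM4 (−2.23), MGST3 (−1.16), GSTO1 (−0.61) and GSTP1 (−0.53). MGST1, GSTA4 and GSTK1 were called in both lines with opposite signs. The A2780 calls of GSTA4 and GSTK1 were lost when single A2780 libraries were left out, and those of MGST1 held. All 9 differences between the lines rest on the pair labelled OVCAR3-DDP. Its summed epithelial and ovarian markers were 539 to 575 CPM against 4400 to 4791 CPM in parental OVCAR3. The part of that in the 9 differences was not tested. Groups of 2 were too small for a search for single libraries that stand apart.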

How the results depend on the processing

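Of 1816 member values recomputed under alternatives, 1645 kept their direction and side of the threshold, 89 lost a call, 39 gained one, 0 called values reversed and 43 changed sign without a call. The number of members called moved by over 1.5 times in 22 of 193 alternatives. At an adjusted p below 0.01 it was 1 in A2780, 0 in sh1 and 0 for the mean of the hairpins. In sh2 it was 1 with all 14 libraries, 3 with only the groups compared and 1 with total-count scaling, and for the mean of the hairpins 0 with total-count scaling. Leaving out each library in turn gave 7 to 8 members in OVCAR3, 1 to 7 in A2780, 6 to 9 for the line difference and 7 to 9 between parental lines. It gave 0 to 2 in sh1, 0 to 3 in sh2, 0 to 3 for the mean of the hairpins, 0 to 1 between hairpins, 4 to 6 for shNC against parental OVCAR3 and 8 to 9 for shNC against the pair labelled OVCAR3-DDP. Single A2780 calls rest on 2 libraries a group: 1 was left without parental A2780 replicate 1, 3 without parental A2780 replicate 2 and 2 without A2780-DDP replicate 1. Without the group labelled OVCAR3-DDP the counts were 4 in A2780, 8 between parental lines and 5 for shNC against parental OVCAR3.

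Total-count scaling moved the median log2 of all genes by 0.18 in OVCAR3, 0.19 in the line difference, 0.11 in sh2, −0.19 in shNC against parental OVCAR3 and −0.29 in shNC against the pair labelled OVCAR3-DDP. The share of called genes that were higher went from 51.4% to 75.6% in sh1, 50.6% to 74.6% in sh2, 49.8% to 77.6% for the mean of the hairpins, 34.8% to 47.0% between hairpins and 48.6% to 37.3% in shNC against parental OVCAR3. Of 1158 counts of list genes, 120 moved by over 1.5 times. Depth limits MGST1 outside the pair labelled OVCAR3-DDP and parental A2780, and MGST2 and GSTM3 in A2780. The cause of each lost call was not tested.

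Replicate numbers did not pair the libraries across all groups: over 21 pairs of groups the correlation of deviations ran from −0.310 to 0.511, with 4 over 0.1. The value of 0.511 was between parental OVCAR3 and A2780-DDP, whose replicates differed by a chi-square per gene of 31.5 and 18.0. What these 2 groups share between their replicates was not tested. With the replicate block the members called were 8 in OVCAR3, 5 in A2780, 9 for the line difference, 8 between parental lines, 1 in sh1, 0 in sh2, 1 for the mean of the hairpins, 0 between hairpins, 6 for shNC against parental OVCAR3 and 9 for shNC against the pair labelled OVCAR3-DDP.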
